A study of Mus musculus with 359 samples.

Results

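The 12 libraries described here are liver RNA from B6C3F1 mice that ate 4-methylimidazole (4-MEI) at 1250 ppm in feed for 28 days, 6 males and 6 females. They were chosen by the dose, organ, day and sex in the sample titles, and they are 12 of 359 libraries in all. They were compared with the 12 liver libraries of day 28 titled as vehicle control, 6 males and 6 females. The sample characteristics list these males at 0 ppm and these females at 150 ppm. Livers at 150, 300 and 2500 ppm of the same day and at 1250 ppm for 5 days, each as 6 males and 6 females, gave values to set beside these. The 60 livers of day 28 shared 1 estimate of the spread, and values of day 5 came from a fit of all 120 livers of both days. The labels give no genetic change, no age, and no pooling of animals for any of these groups. B6C3F1 is the first-generation hybrid of C57BL/6 females and C3H males, a standard mouse of carcinogenicity testing, and 4-MEI is a small nitrogen heterocycle that forms when sugars are heated with ammonia, as in some caramel colours.

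The labels disagree with each other. The dose in the titles and the dose in the sample characteristics differed in 18 of the 24 libraries, among them 12 of 12 at 1250 ppm, and the sex differed in 12 of the 24. The 6 males of 1250 ppm are listed in the characteristics as 150 ppm and female and the 6 females as 300 ppm, while the 6 vehicle females are listed as 150 ppm and male. Y-linked transcripts matched the sex in the title in 24 of 24 libraries and the sex in the characteristics in 12 of 24. The sex of the titles is thus carried by the RNA, whereas the dose rests on the titles, which are also the column names of the count table.

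Xenobiotic metabolism in liver is run by ligand-responsive transcription factors. CAR and PXR, nuclear receptors of hepatocytes, switch on cytochromes of the Cyp2b, Cyp2c and Cyp3a families, which oxidise foreign compounds and steroids, together with conjugating enzymes and transporters. NRF2 switches on antioxidant and glutathione genes when its inhibitor KEAP1 is modified by electrophiles. Interferon-stimulated genes are antiviral effectors whose response to interferon is amplified by IRF7, and serum amyloid A genes are acute phase genes that cytokines switch on in hepatocytes.

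Over both sexes, 42 of 12904 genes tested differed between 1250 ppm and vehicle (0.325% of genes tested, edgeR quasi-likelihood test, Benjamini-Hochberg adjusted p at a threshold of 0.05). Of these, 23 were higher (0.178%) and 19 were lower (0.147%), and 1486 genes had an unadjusted p under 0.05. Most of the differences were small: 17 of the 23 higher and 17 of the 19 lower genes had an absolute log2 fold change under 0.5. The median log2 fold change was 0.36 for the higher genes and -0.30 for the lower genes, and 0.0032 over all genes tested. The higher genes were headed by drug-metabolising cytochromes, and the lower genes held interferon-stimulated and acute phase genes. In this test 16 of the 42 genes (11 higher, 5 lower) were called against vehicle under each of 8 other analysis settings and with each of the 24 libraries left out in turn: Cyp2b10, Cyp2c29, Cyp2c50, Cyp2c54, Cyp2c55, Cyp3a11, Ugt2b35, Ces2a, Gstm1, Slco1a4 and Srxn1 among the higher genes, and Bst2, Ifitm3, Irf7, Cyp2j6 and Rdh5 among the lower genes. The other 26 lost the call under at least 1 of them. With the mean of 150 and 300 ppm in place of vehicle 4 of the 42 were called (Cyp2c29, Cyp2c55, Cyp3a11 and Irf7).

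The 24 libraries held 12024800 to 18084863 counts in genes, with a median of 14199389. The 6 vehicle males, at 12024800 to 12870791, were all shallower than the 6 males of 1250 ppm, at 13593385 to 14790745, so that depth and dose cannot be told apart in males. Each library correlated with the rest of its group at r of 0.980 to 0.994 on the log2 CPM scale. Hepatocyte markers were present throughout, with a summed level of 129339 to 227542 CPM over 12 genes. One vehicle male, replicate 167, stood apart: relative to the day 28 mean of its sex, its short transcripts lay 0.72 above its long ones (median log2 deviation of genes of at most 1945 and at least 5232 bases), against 0.0867 in the next vehicle male, and it had 14916 genes detected. One male of 1250 ppm, replicate 209, had 16549 genes detected and low levels of testis genes such as Tnp2, a sperm chromatin protein. Tnp2 was at 6.12 CPM in replicate 209 against at most 0.34 CPM in the 23 others. It reached 2.26 CPM in the 36 day 28 livers of the other feed levels. Without both libraries 38 genes passed over both sexes, 30 of them among the 42.

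Promoters are shown for 4 of these 16 genes, 3 of the higher drug-metabolism genes and 1 of the lower interferon genes, which were picked because their windows hold a match and so are not typical of the 16. Cyp2b10 and Cyp2c55 have neither half-site in their windows, and Irf7 and Ifitm3 have no interferon element. Each promoter is given as the stretch of 250 bases before the RefSeq start (build GRCm38.p6), in the sense of the gene. Capitals in the first 3 mark a nuclear receptor half-site, AGGTCA or AGTTCA on either strand, the kind of short word that CAR and PXR read in pairs. Capitals in Bst2 mark the interferon-stimulated response element, searched on either strand as GAAA and GAAA with any 2 bases between them. Its 2 matches in Bst2 overlap and form 1 run of capitals.

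Cyp2c29, chr19:39286835-39287084, plus strand: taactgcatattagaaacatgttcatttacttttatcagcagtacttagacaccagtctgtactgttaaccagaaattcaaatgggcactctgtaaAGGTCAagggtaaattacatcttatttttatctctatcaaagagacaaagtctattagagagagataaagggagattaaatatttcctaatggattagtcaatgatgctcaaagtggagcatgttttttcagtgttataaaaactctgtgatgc
Ugt2b35, chr5:87000610-87000859, plus strand: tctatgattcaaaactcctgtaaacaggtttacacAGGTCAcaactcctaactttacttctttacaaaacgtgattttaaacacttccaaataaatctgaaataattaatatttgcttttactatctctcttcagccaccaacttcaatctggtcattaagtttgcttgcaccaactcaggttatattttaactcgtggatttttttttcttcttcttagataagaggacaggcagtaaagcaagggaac
Cyp2c50, chr19:40089429-40089678, plus strand: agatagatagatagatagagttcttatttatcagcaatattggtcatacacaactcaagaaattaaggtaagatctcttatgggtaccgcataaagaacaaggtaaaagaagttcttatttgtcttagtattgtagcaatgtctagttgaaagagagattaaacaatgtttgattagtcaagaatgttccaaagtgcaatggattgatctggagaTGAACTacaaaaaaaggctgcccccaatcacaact
Bst2, chr8:71537473-71537722, minus strand: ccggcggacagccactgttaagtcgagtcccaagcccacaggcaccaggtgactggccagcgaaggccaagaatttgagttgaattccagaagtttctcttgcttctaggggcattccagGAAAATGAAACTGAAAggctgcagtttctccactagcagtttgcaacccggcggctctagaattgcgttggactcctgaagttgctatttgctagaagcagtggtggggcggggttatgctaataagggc

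RefSeq windows were found for 34 of the 42 genes, 43 windows in all since some genes have several that can overlap. AGGTCA was in 13 of the 43 windows (30.2%) and in 14.02% of 32851 windows of the same length over all genes. These 13 windows belong to 12 of the 34 genes, and Cyp3a25 is counted through overlapping windows. Bscl2, Hpx, Saa1 and Saa2, which were lower, are among the 12. AGTTCA was in 9 of 43 (20.9%) and 11.8% of all windows, and the interferon element was in 1 of 43 (2.33%), which was Bst2, and 2.98% of all windows. The antioxidant response core TGACNNNGC was in 4 of 43 (9.3%; Hpx, Irf7, Pou6f1 and Txnrd1) and 10.2% of all windows. The core word of the dioxin response element, GCGTG, was in 18 of 43 (41.9%) and 28.2% of all windows. These 18 windows belong to 13 of the 34 genes, and Chid1 and Gstm1 are counted through overlapping windows. Cyp3a11 had 1 AGGTCA and 1 TGAACT, the reverse complement of AGTTCA, in its window. Such matches describe letters in these windows and do not show binding.

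Among cytochromes known as CAR and PXR targets, 8 of 26 tested were higher and 0 lower, against 0.178% of all genes tested that were higher. This list and those below were chosen with earlier results of these data known, so such counts describe the listed genes only. The median of these 26 genes was 0.07 and that of all genes tested 0.0032 on the log2 scale. The 8 were Cyp2b10, Cyp2c55, Cyp2c29, Cyp2c50, Cyp2c54, Cyp3a11, Cyp3a25 and Cyp3a59. All counts are per gene symbol, and because the Cyp2b, Cyp2c and Cyp3a families hold near-identical neighbours, the split of reads among paralogs is uncertain.

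Cyp2b10, the classical CAR target (chromosome 7, 25897620 to 25926624, plus strand, GRCm38), was low in males and higher in females. In males it ran from 3.28 to 10.7 CPM (TMM-scaled, relative to library size, median 4.03) on vehicle and from 9.28 to 45.03 (median 16.5) at 1250 ppm. Female livers ran from 16.7 to 50.0 CPM (median 32.4) on vehicle and from 57.7 to 119.2 (median 68.8) at 1250 ppm. The female groups did not overlap and the male groups overlapped. Over both sexes Cyp2b10 rose by 1.57 on the log2 scale (SE 0.30, adjusted p = 0.00652). Within males the log2 fold change was 1.92 (SE 0.46, adjusted p = 0.0504) and within females 1.21 (SE 0.40, adjusted p = 0.508), neither past the threshold.

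Cyp2c29 is an abundant hepatic P450 that hydroxylates drugs and fatty acids. In males it ran from 2137 to 3118 CPM (median 2788) on vehicle and from 3093 to 4231 (median 3708) at 1250 ppm. In females it ran from 1411 to 2430.2 CPM (median 1692) on vehicle and from 2589 to 3988 (median 3639.8) at 1250 ppm. Only the female groups were apart, and the medians of the sexes, which differed on vehicle, lay close together at 1250 ppm. Cyp2c29 rose by 0.71 over both sexes (SE 0.10, adjusted p = 1.08e-05) and by 0.97 in females (SE 0.14, adjusted p = 5.51e-05). In males the log2 fold change was 0.45 (SE 0.14, adjusted p = 0.104), and the difference between the sexes, 0.53, was not past the threshold (SE 0.20, adjusted p = 0.364).

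Cyp2c55, a family member with low basal expression (chromosome 19, 39007019 to 39042693, plus strand), ran in females from 3.53 to 7.88 CPM (median 5.57) on vehicle and from 10.004 to 34.04 (median 18.4) at 1250 ppm. In males it ran from 9.70 to 19.5 CPM (median 16.4) and from 17.1 to 47.3 (median 24.99). Its female groups were apart and its male groups overlapped. It rose by 1.33 over both sexes (SE 0.23, adjusted p = 0.00223) and by 1.79 in females (SE 0.34, adjusted p = 0.0143), and was 0.87 in males (SE 0.32, adjusted p = 0.164).

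Cyp3a11, the main murine PXR-inducible P450 and counterpart of human CYP3A4 (chromosome 5, 145854426 to 145879964, minus strand), had like medians in males and females on vehicle. In males it ran from 2066 to 2662 CPM (median 2458) on vehicle and from 2577 to 3893 (median 2831) at 1250 ppm. In females it ran from 2131 to 3191 CPM (median 2581) on vehicle and from 3404 to 4049 (median 3579) at 1250 ppm. Females were fully apart and males overlapped. Cyp3a11 rose by 0.44 over both sexes (SE 0.09, adjusted p = 0.0083).

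Cyp2c50 and Cyp2c54 are neighbouring genes of the same cluster as Cyp2c29. Cyp2c50 ran from 893 to 1072 CPM (median 959.9) in vehicle males and from 1084 to 1473 (median 1257) in treated males, which did not overlap. In females Cyp2c50 ran from 1110.4 to 1417 CPM (median 1223) and from 1349 to 1741 (median 1584), which overlapped. The rise of Cyp2c50 over both sexes was 0.35 (SE 0.07, adjusted p = 0.00276). Cyp2c54 rose by 0.38 over both sexes (SE 0.08, adjusted p = 0.00913) and by 0.51 in males (SE 0.11, adjusted p = 0.0308). Cyp3a25 rose by 0.38 (SE 0.09, adjusted p = 0.0456) and Cyp3a59 by 0.61 (SE 0.15, adjusted p = 0.0481); each was called in 6 of the 24 fits that left out 1 library.

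**Figure D1:**
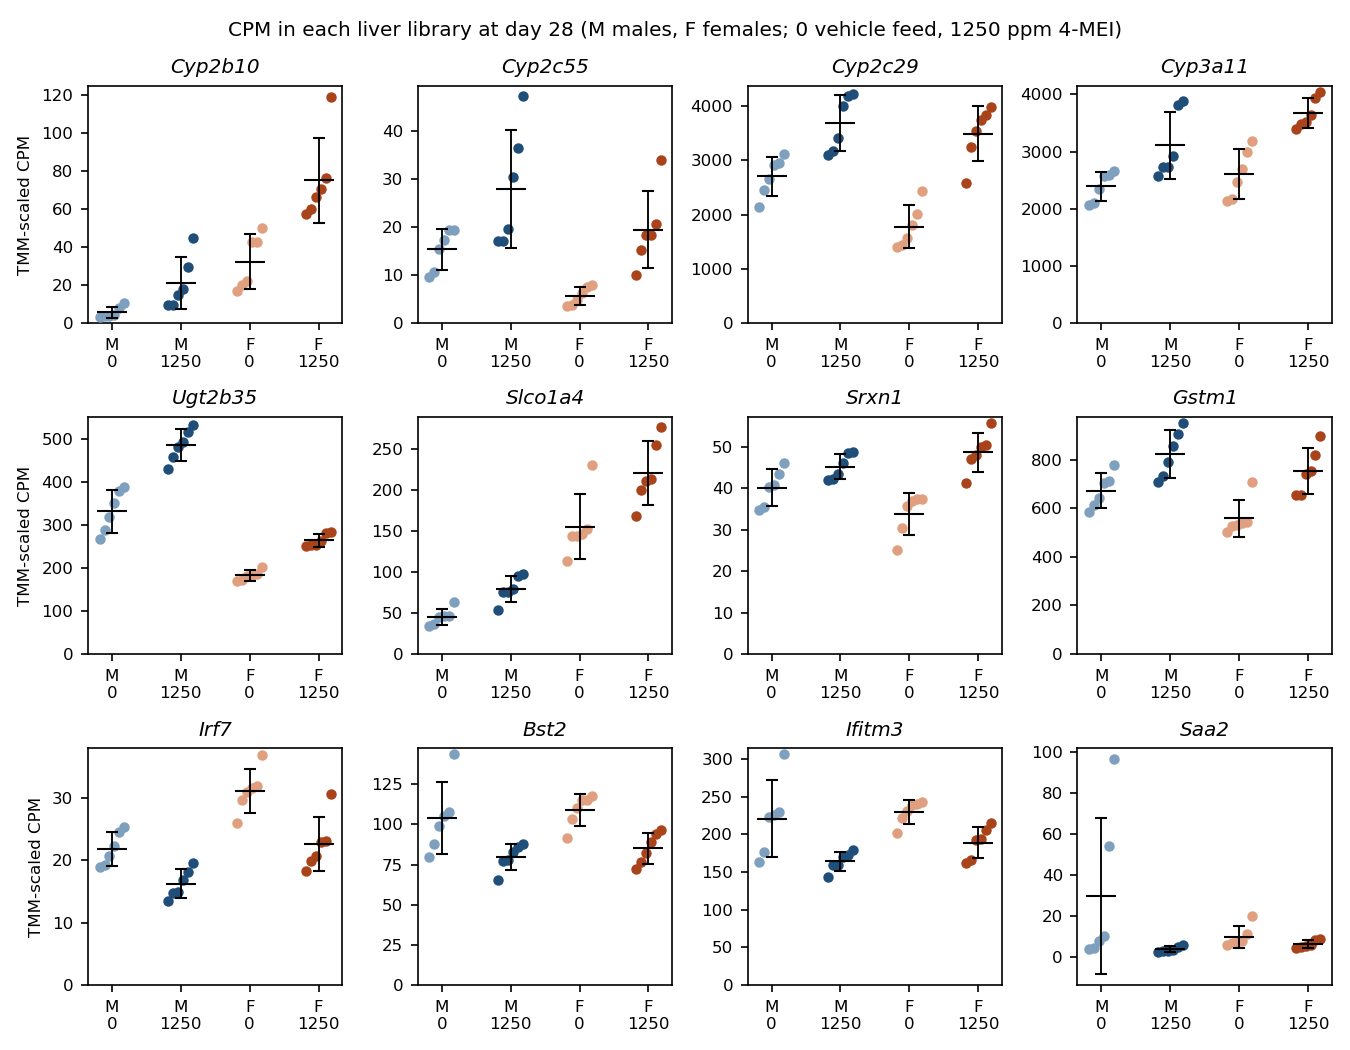
TMM-scaled CPM of 12 genes in each of the 24 day 28 liver libraries, with vehicle (0) and 1250 ppm for males (M) and females (F); each point is 1 library and bars show the group mean and SD. Ugt2b35 is apart in both sexes (266 to 388 against 431 to 533 CPM in males), and Saa2 has 1 vehicle male at 96.8 CPM.

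Ugt2b35, a glucuronosyltransferase that conjugates hydroxylated compounds for excretion, was the gene with groups apart in both sexes. In males it ran from 266 to 388 CPM (median 334) on vehicle and from 431 to 533 (median 487) at 1250 ppm. Females ran from 169 to 203 CPM (median 182) on vehicle and from 252 to 284 (median 257) at 1250 ppm. It rose by 0.54 over both sexes (SE 0.07, adjusted p = 1.08e-05), by 0.55 in males (SE 0.10, adjusted p = 0.0109) and by 0.53 in females (SE 0.10, adjusted p = 0.0143). Of all genes tested, 0.00775% were above vehicle without overlap in both sexes, which is Ugt2b35 itself. Of the 23 higher genes 4 were above without overlap in males, against 0.403% of all genes tested, and 9 in females, against 0.256%. Since those 23 genes were selected on the same contrast, the counts describe them only. Ugt2b35 was the one of 18 glucuronosyltransferases tested that was higher, against 0.178% of all genes tested, and 0 were lower. The median of the 18 was 0.07.

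Conjugating enzymes, esterases, transporters and other CAR and PXR targets had 4 of 34 tested higher and 0 lower, against 0.178% of all genes tested that were higher. The median of the 34 was 0.12 and that of all genes tested 0.0032. Ugt2b35 is among the 4 and is also counted with the glucuronosyltransferases. Slco1a4, an uptake transporter for organic anions on hepatocytes, ran from 33.7 to 62.9 CPM (median 45.2) in vehicle males and from 53.1 to 97.3 (median 77.7) at 1250 ppm. Female values ran from 113.6 to 231 CPM (median 145) and from 168 to 277 (median 212), and both sexes overlapped. Slco1a4 rose by 0.66 over both sexes (SE 0.14, adjusted p = 0.0172). Ces2a, a carboxylesterase that cleaves ester drugs, rose by 0.33 (SE 0.07, adjusted p = 0.00988), from a female median of 267 to 350.1 CPM with no overlap. Gstm1, a glutathione transferase, rose by 0.36 (SE 0.08, adjusted p = 0.017), from a male median of 675 to 823 CPM and a female median of 535 to 749 CPM.

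The receptors themselves did not pass. Of 18 xenobiotic receptors and cofactors tested, 0 were called (median 0.0061; 2 had an unadjusted p under 0.05, both lower). The log2 fold change was 0.06 for Nr1i3, which encodes CAR (SE 0.16, adjusted p = 0.913), and -0.31 for Nr1i2, which encodes PXR (SE 0.11, adjusted p = 0.269). It was -0.06 for Alas1, the first enzyme of haem synthesis (SE 0.49, adjusted p = 0.975), and -0.13 for Por, the reductase that donates electrons to P450s (SE 0.27, adjusted p = 0.881). Alas1 ran from 82.7 to 1258 CPM in the treated males alone and Por from 153.1 to 697, so shifts of these 2 genes would have been hard to detect. Targets of the aryl hydrocarbon receptor had 0 of 6 tested called (median 0.17; 2 with an unadjusted p under 0.05, both higher). Cyp1a2, one of them, had a log2 fold change of 0.27 (SE 0.12, adjusted p = 0.354).

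Of 32 NRF2 targets tested, 3 were higher (Srxn1, Txnrd1 and Gstm1) and 0 lower, against 0.178% of all genes tested that were higher. The median of the 32 was 0.10 and that of all genes tested 0.0032. Gstm1 is also in the list of conjugating enzymes, so it is counted in both lists. Srxn1, which repairs over-oxidised peroxiredoxins (chromosome 2, 152105516 to 152111376, plus strand), ran from 34.7 to 46.05 CPM (median 40.5) in vehicle males and from 42.03 to 48.7 (median 44.6) in treated males. In females Srxn1 ran from 25.003 to 37.4 CPM (median 36.2) on vehicle and from 41.1 to 55.6 (median 48.8) at 1250 ppm. The female groups were apart. Srxn1 rose by 0.35 over both sexes (SE 0.07, adjusted p = 0.00652) and by 0.53 in females (SE 0.10, adjusted p = 0.00735), and was 0.17 in males (SE 0.10, adjusted p = 0.389). Txnrd1, thioredoxin reductase, rose by 0.17 (SE 0.04, adjusted p = 0.0354) and was called in 9 of the 24 fits that left out 1 library. Nqo1, the usual NRF2 reporter enzyme, was 0.21 (SE 0.11, adjusted p = 0.469).

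Among 25 interferon-stimulated genes tested, 2 were lower (Irf7 and Bst2) and 0 higher, against 0.147% of all genes that were lower. The median of the 25 was -0.22, 8 had an unadjusted p under 0.05 with a lower level, and 1 lay above 0. Irf7, the transcription factor that amplifies type I interferon responses (chromosome 7, 141262706 to 141266481, minus strand), ran in males from 18.9 to 25.3 CPM (median 21.4) on vehicle and from 13.4 to 19.6 (median 15.8) at 1250 ppm. In females it ran from 25.9 to 36.8 CPM (median 31.2) and from 18.3 to 30.6 (median 21.8), and the groups overlapped in both sexes. Irf7 fell by 0.44 over both sexes (SE 0.09, adjusted p = 0.00988). Bst2, tetherin, a membrane protein that holds budding virus at the cell surface, ran from 80.05 to 143.7 CPM (median 102.2) in vehicle males and from 65.6 to 88.1 (median 80.5) in treated males. In females Bst2 ran from 91.7 to 117.9 CPM (median 112.7) and from 72.1 to 96.6 (median 85.9). It fell by 0.37 (SE 0.07, adjusted p = 0.00913).

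Ifitm3 and Ifi27, interferon-inducible genes outside that list, were also among the 19. Ifitm3, which blocks viral entry at endosomes, ran from 164 to 307 CPM (median 225) in vehicle males and from 143.8 to 179 (median 165) in treated males. In females Ifitm3 ran from 202 to 243 CPM (median 235) and from 163 to 215 (median 193), so that the medians were lower at 1250 ppm and the ranges overlapped in both sexes. It fell by 0.35 over both sexes (SE 0.07, adjusted p = 0.00276) and by 0.43 in males (SE 0.09, adjusted p = 0.0321). Ifi27 fell by 0.42 (SE 0.09, adjusted p = 0.0182). Isg15 and Usp18, both of the list, were -0.45 (SE 0.12, adjusted p = 0.103) and -0.40 (SE 0.11, adjusted p = 0.0999). The summed level of 12 Kupffer cell markers was 220 to 311 CPM in vehicle males and 245 to 373 in treated males. In females it was 397 to 531 and 366 to 458, with 0 markers at 0 and 0 called. In males the log2 fold change was above 0 for 12 of the 12 markers (median 0.25, 5 with an unadjusted p under 0.05). In females it was above 0 for 1 of the 12 (median -0.13, 0 with an unadjusted p under 0.05). Of 12904 genes tested, 924 were higher in males at an unadjusted p under 0.05. The male rise was not particular to Kupffer cell markers. Of 12 sinusoidal endothelial markers, 11 were above 0 in males (median 0.14, 5 higher at an unadjusted p under 0.05). In females 8 of those 12 were above 0 (median 0.04). In whole liver, fewer cells of a type and less RNA per cell cannot be told apart, and the part of immune cells in these differences was not tested.

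Of 25 acute phase genes tested, 3 were lower (Saa1, Saa2 and Hpx) and 0 higher, against 0.147% of all genes tested that were lower. The median of the 25 was -0.10 and that of all genes tested 0.0032. Saa1 and Saa2 are neighbours of the same family, and the split of reads between them is uncertain. Saa2, a serum amyloid A gene (chromosome 7, 46751790 to 46754313, plus strand), ran in males from 4.04 to 96.8 CPM (median 9.07) on vehicle and from 2.58 to 5.83 (median 3.15) at 1250 ppm. In females it ran from 5.91 to 20.2 CPM (median 7.46) on vehicle and from 4.52 to 8.97 (median 5.76) at 1250 ppm. The groups overlapped in both sexes, and the spread was wide among vehicle males. Saa2 fell by 1.80 over both sexes (SE 0.32, adjusted p = 0.00223) and by 2.96 in males (SE 0.46, adjusted p = 0.000493). Without vehicle male replicate 168 Saa2 was -1.37 over both sexes (adjusted p = 0.00884) and -2.10 in males (adjusted p = 0.0146), and with the 24 libraries alone neither passed (adjusted p = 0.164 and 0.128). In females it was -0.63 (SE 0.44, adjusted p = 0.854), and the difference between the sexes, 2.33 (SE 0.63, adjusted p = 0.267), was not past the threshold, and no gene had a smaller adjusted p in that test.

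Saa1, its neighbour, ran in males from 16.5 to 337 CPM (median 68.3) on vehicle and from 16.9 to 34.7 (median 25.2) at 1250 ppm, and in females from 13.9 to 66.7 (median 22.3) and from 10.7 to 33.8 (median 13.97). It fell by 1.39 over both sexes (SE 0.31, adjusted p = 0.022), but without vehicle male replicate 168 the value was -1.06 and not past the threshold (adjusted p = 0.102). The call of Saa1 was also lost without vehicle male replicate 164, vehicle female replicate 175 or female replicate 218 of 1250 ppm (adjusted p = 0.0521, 0.0679 and 0.0531). Neutrophil markers were near 0 in the treated and vehicle groups, with a sum of 1.19 to 4.41 CPM over 10 genes and with Ngp at 0 in all 4 groups. Hpx, hemopexin, fell by 0.19 (SE 0.05, adjusted p = 0.047) and was called in 7 of the 24 fits that left out 1 library.

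Several other metabolic genes were among the 42. Cyp2j6, an epoxygenase, fell by 0.27 (SE 0.06, adjusted p = 0.0131) and Rdh5, a retinol dehydrogenase, by 0.28 (SE 0.06, adjusted p = 0.0104). Rdh5 ran in females from 17.2 to 19.6 CPM (median 17.8) on vehicle and from 14.8 to 16.7 (median 15.4) at 1250 ppm, without overlap. Rdh5 was the 1 of the 19 lower genes that was below without overlap in females (0.248% of all genes tested). Alad, an enzyme of haem synthesis, fell by 0.24 (SE 0.06, adjusted p = 0.0423). Bscl2, seipin of lipid droplets, fell by 0.19 (SE 0.04, adjusted p = 0.00988). The nuclear RNA Malat1 fell by 0.50 (SE 0.12, adjusted p = 0.0499), and this call was kept in 6 of 24 fits that left out 1 library. Tst, Pepd, Aspdh, Chid1, Dhrs7b and Gm6787 were also lower.

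The other higher genes were Bbs7, Pou6f1, Rps2, Spopl, Stk24, Ppp2r5a, Tmem30b, Aldh5a1 and Nsmaf, with log2 fold changes from 0.16 for Nsmaf to 0.42 for Bbs7. Rps2, a ribosomal protein with processed copies in the genome, is uncertain as a single gene. Aldh5a1, which completes GABA breakdown, ran from 62.5 to 79.1 CPM in vehicle males and from 79.4 to 84.6 in treated males, apart, with medians of 72.3 and 82.1. Its log2 fold change was 0.18 (SE 0.04, adjusted p = 0.0286). Pou6f1, a homeobox factor, ran in females from 4.47 to 6.26 CPM on vehicle and from 7.02 to 8.51 at 1250 ppm, also apart, and rose by 0.39 (SE 0.08, adjusted p = 0.0131).

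In the other gene lists examined no gene passed over both sexes. Fatty acid synthesis genes had 0 of 18 called, a median of -0.39, 10 with an unadjusted p under 0.05 and a lower level, and 1 above 0. Thrsp, a lipogenic regulator, was -1.53 (SE 0.46, adjusted p = 0.141), with vehicle males from 104.7 to 1545 CPM and treated males from 49.9 to 287. Fasn, fatty acid synthase, was -0.83 (SE 0.31, adjusted p = 0.269). Male-biased liver genes had 0 of 26 called, a median of -0.16 and 9 with an unadjusted p under 0.05 and a lower level. Female-biased genes had 0 of 24 called and a median of -0.03. In females alone the median was -0.24 for the male-biased genes, with 8 lower at an unadjusted p under 0.05, and -0.28 for the female-biased genes, with 5 lower and 4 higher. The difference between these lists was not tested. Hsd3b5, a male-specific steroid enzyme, was -2.24 in females (SE 0.54, adjusted p = 0.173), where it ran from 9.98 to 63.8 CPM on vehicle and from 1.28 to 12.99 at 1250 ppm, and 0.06 in males (SE 0.47, adjusted p = 0.97). Cholesterol synthesis (25 genes tested), PPAR-alpha targets (28), cell cycle (28), p53 targets (21), the unfolded protein and stress response (20) and the circadian clock (19) had 0 called. Serpina7, thyroxine-binding globulin, was 0.94 (SE 0.24, adjusted p = 0.0593), with females from 7.13 to 28.6 CPM on vehicle and from 28.1 to 62.6 at 1250 ppm.

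The sexes were tested apart as well. In males 21 genes passed (0.163% of those tested; 6 higher, 0.0465%, and 15 lower, 0.116%), with 1979 at an unadjusted p under 0.05. In females 5 passed (0.0387%), which were Cyp2c29, Srxn1, Cyp2c55 and Ugt2b35 higher (0.031%) and Acsm2 lower (0.00775%), with 824 at an unadjusted p under 0.05. Ugt2b35 was called in both. For the difference between the sexes 0 genes passed (0%) by edgeR and 0 by DESeq2, with 1366 at an unadjusted p under 0.05 by edgeR, so that a sex-specific response was not shown for any gene. All 42 genes had the same sign in males and females, a sign that the choice of genes on the mean of both sexes favours. Acsm2, a mitochondrial acyl-CoA synthetase, ran in females from 2.02 to 8.25 CPM (median 4.45) on vehicle and from 0.638 to 2.29 (median 1.15) at 1250 ppm. It fell by 1.85 in females (SE 0.39, adjusted p = 0.0408) and was 0.35 in males (SE 0.35, adjusted p = 0.667). The female call of Acsm2 was kept in 4 of 6 other settings and in 16 of 24 fits that left out 1 library. It was lost without vehicle female replicate 170, 172 or 176 or without female replicate 218, 219, 220, 222 or 223 of 1250 ppm, with an adjusted p of up to 0.299 (without 172).

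**Figure D2:**
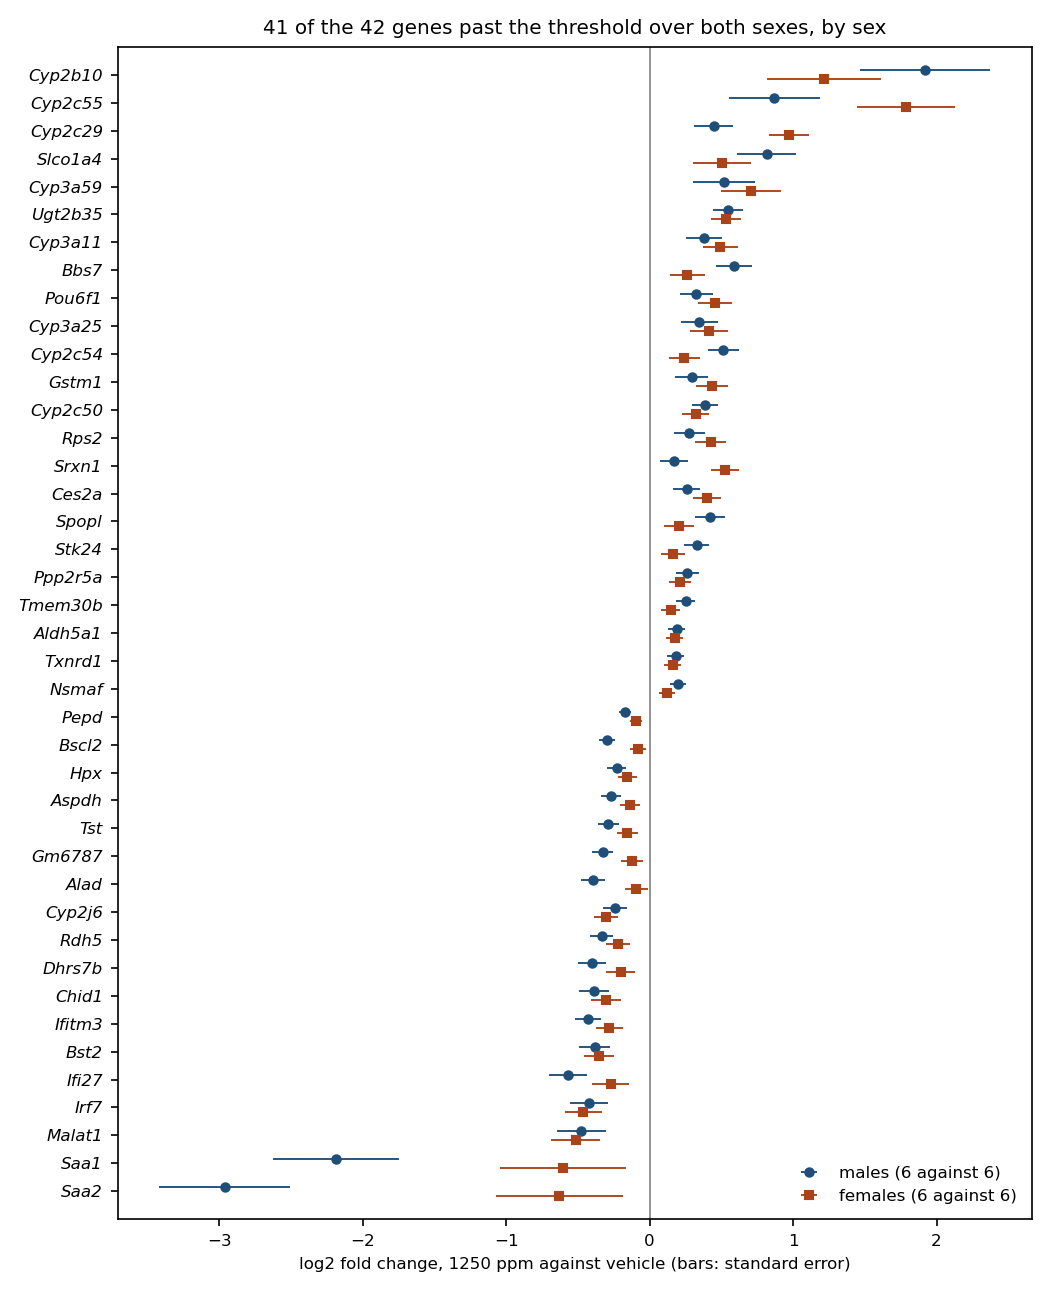
Log2 fold change of 1250 ppm against vehicle in males and in females for 41 of the 42 genes past the threshold over both sexes; points are the fitted values and bars their standard errors. The 41 drawn have the same sign in both sexes, and Saa2 (-2.96 in males, -0.63 in females) and Cyp2c29 (0.45 and 0.97) show how unequal the sizes can be without passing the test of the difference.

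Besides Saa1, Saa2, Ifitm3, Ifi27, Alad, Bscl2 and Gm6787, the lower genes of the males were Ndufaf3, Dus1l, Gpr108, BC031181, Apip, Timm13, Pex11g and Scamp4, and the higher ones were Ugt2b35, Cyp2c54, Bbs7, Heca, Ptbp3 and 4930413G21Rik. The transcripts of the 15 lower genes were short, with a median length of 1769 bases. It was 3023 bases for the 6 higher genes and 3354 bases for all genes tested. Over all genes the median male log2 fold change was -0.11 in short genes (at most 1945 bases) and 0.10 in long genes (at least 5232 bases), and in females 0.03 and -0.04. The part of transcript length in the male calls was not tested. Without vehicle male replicate 167, 4 genes passed in males (Ugt2b35, Bscl2, Saa1 and Saa2), and without both this library and replicate 209 of 1250 ppm, 3 passed (Ugt2b35, Alad and Saa2).

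The other feed levels of day 28 share the vehicle libraries with 1250 ppm, so their values against vehicle are given side by side only. Against vehicle 0 genes passed at 150 ppm (0%, 1532 at an unadjusted p under 0.05), 0 at 300 ppm (0%, 698) and 191 at 2500 ppm (1.48%; 84 higher, 0.651%, and the rest lower, 0.829%) by edgeR. Across 150, 300, 1250 and 2500 ppm, the log2 fold change of Cyp2b10 was 0.39, 0.48, 1.57 and 2.53. That of Cyp2c55 was -0.00, 0.07, 1.33 and 2.09, and that of Cyp3a11 was 0.03, 0.05, 0.44 and 0.90. For Cyp2b10, Cyp2c55 and Cyp3a11 the values at the lower levels were small beside those at 1250 ppm. Cyp2c29 was 0.19, 0.21, 0.71 and 0.96, Cyp2c50 0.16, 0.12, 0.35 and 0.39, and Cyp2c54 0.21, 0.20, 0.38 and 0.43. Cyp3a25 was 0.13, 0.31, 0.38 and 0.45 and Cyp3a59 0.19, 0.46, 0.61 and 0.76. The median of the 23 higher genes was 0.16 at both 150 and 300 ppm, and that of the 19 lower genes -0.16 at both. Ugt2b35 was 0.31, 0.25, 0.54 and 0.42. Malat1, lower at 1250 ppm, was -0.34, -0.20, -0.50 and -0.03. Slco1a4 was 0.63, 0.44, 0.66 and 0.62, and Saa2 was -1.38, -1.62, -1.80 and -1.68. The values of Slco1a4 and Saa2 were thus of similar size from 150 ppm on, and every one of them was taken against the same 12 vehicle libraries.

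**Figure D3:**
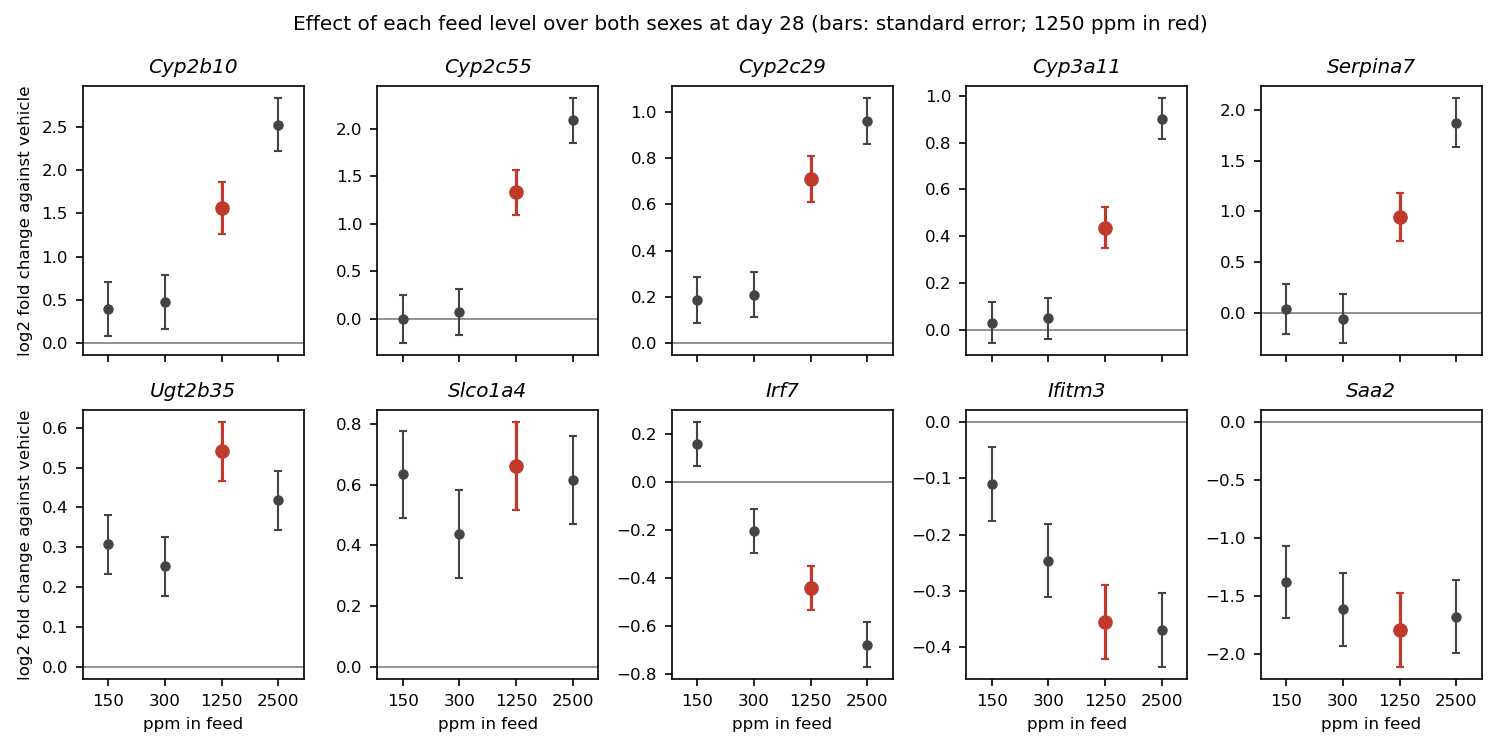
Log2 fold change against vehicle over both sexes at 150, 300, 1250 and 2500 ppm for 10 genes (evenly spaced feed levels; bars are standard errors; 1250 ppm in red); the 4 values of a gene share the vehicle libraries. Cyp2b10 goes from 0.39 at 150 ppm to 2.53 at 2500 ppm, while Saa2 lies between -1.38 and -1.80.

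Comparisons that use no vehicle library were also made. Against the mean of 150 and 300 ppm, a comparison added after the data were seen, 5 genes passed at 1250 ppm (0.0387%; 4 higher, 0.031%, and 1 lower, 0.00775%). They were Cyp2c55 (1.30, SE 0.19, adjusted p = 0.000158), Cyp2c29 (0.51, SE 0.08, adjusted p = 0.000614), Cyp3a11 (0.40, SE 0.07, adjusted p = 0.00746), Serpina7 (0.95, SE 0.20, adjusted p = 0.0386) and Irf7 (-0.42, SE 0.08, adjusted p = 0.00916). Cyp2b10 was 1.13 (SE 0.24, adjusted p = 0.0583) and Ugt2b35 0.26 (SE 0.06, adjusted p = 0.191). Slco1a4 was 0.13 (SE 0.12, adjusted p = 0.844), Saa1 0.08 (SE 0.27, adjusted p = 0.968) and Saa2 -0.30 (SE 0.29, adjusted p = 0.848), far from their values against vehicle. Between 2500 and 1250 ppm 2 genes passed (0.0155%): Cyp3a11 was 0.47 higher at 2500 ppm (SE 0.09, adjusted p = 0.023) and Gm12250, an interferon-inducible GTPase locus that is not among the 42, was -0.83 (SE 0.17, adjusted p = 0.0487). Cyp2b10 was 0.96 (SE 0.28, adjusted p = 0.296) and Cyp2c55 0.76 (SE 0.22, adjusted p = 0.282) in that comparison.

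The same feed level for 5 days, with its own 6 and 6 vehicle libraries, gave 11 genes past the threshold (0.0838% of 13125 tested; 6 higher, 0.0457%, and 5 lower, 0.0381%). The 6 higher genes were Cyp3a11, Cyp2c29, Cyp2c50, Cyp2c54, Cyp2c55 and Ugt2b35, and 6 of 6 were among the 23 of day 28, which makes them 6 of 23. The 5 lower genes were Ccnl2, Cyp2d37-ps, Fam193b, Cops7b and Mir3064, and 0 of 5 were among the 19. Cyp2c29 at day 5 ran from 2108 to 2833 CPM in vehicle males and from 3257 to 3782 in treated males, apart, and from 1411 to 2291 and from 2361 to 4088 in females, also apart. Its log2 fold change at day 5 was 0.68 (SE 0.10, adjusted p = 1.48e-06), beside 0.71 at day 28. Cyp3a11 was 0.53 (SE 0.08, adjusted p = 3.55e-05), Cyp2c55 1.22 (SE 0.23, adjusted p = 0.00136) and Ugt2b35 0.38 (SE 0.08, adjusted p = 0.00558). Cyp2b10 was 1.00 (SE 0.30, adjusted p = 0.222).

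The signs of 38 of the 42 genes were the same at day 5, 20 of the 23 higher and 18 of the 19 lower, and 56.5% of 12902 genes tested at both days had the same sign. The median day 5 value was 0.27 for the higher genes, -0.11 for the lower genes and -0.0022 for all genes tested at both days. Irf7 at day 5 was -0.12 (SE 0.09, adjusted p = 0.976), Ifitm3 -0.09 (SE 0.07, adjusted p = 0.993) and Saa2 -0.39 (SE 0.26, adjusted p = 0.966). Vehicle males ran for Saa2 from 4.94 to 15.2 CPM at day 5 and from 4.04 to 96.8 at day 28. The test of day 28 against day 5 called 1 gene (0.00762%), Rpph1, the RNA of ribonuclease P, at 1.47 (SE 0.27, adjusted p = 0.00491), and none of the 42. Differences between the days were therefore not shown for the P450s, Irf7 (-0.32, SE 0.13, adjusted p = 0.867) or Saa2 (-1.41, SE 0.38, adjusted p = 0.427).

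**Figure D4:**
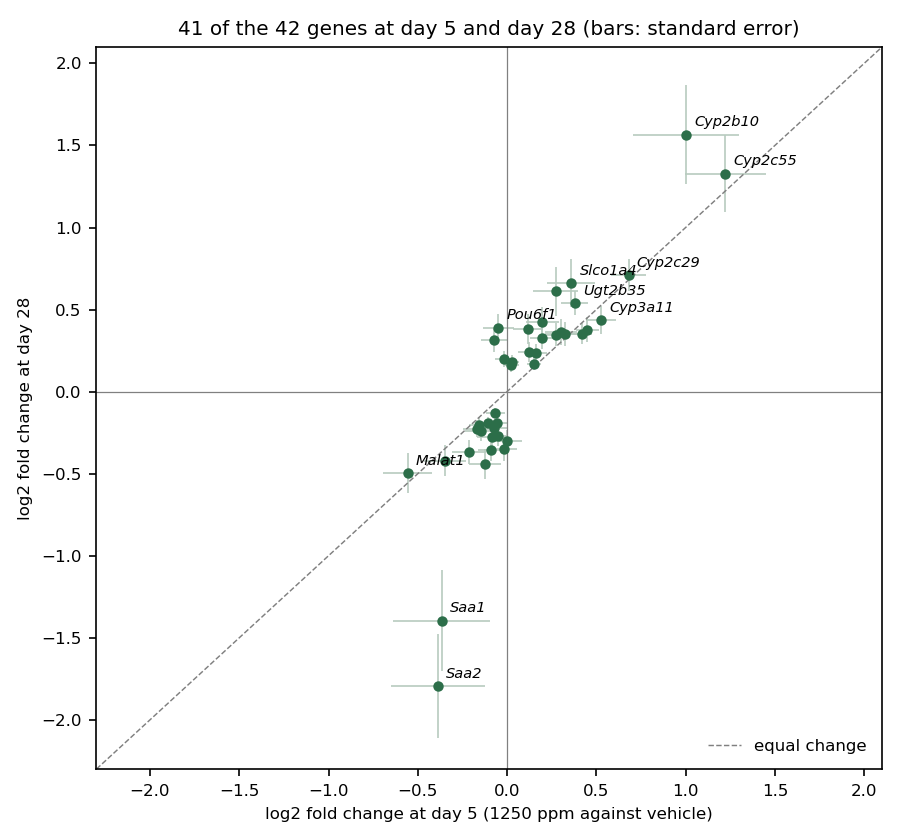
Log2 fold change of 1250 ppm against vehicle at day 5 (x axis) and day 28 (y axis) for 41 of the 42 genes chosen at day 28, with standard errors as bars; each day has its own vehicle libraries. Cyp2c29 lies at 0.68 and 0.71, and Saa2 at -0.39 and -1.80.

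The numbers in the titles come in blocks of 8 per dose and sex, and some levels went with the place of the number in its block. Arntl, the clock gene whose transcript cycles through the day, was 21.1, 13.4 and 7.96 CPM at places 1, 2 and 3 of the males of 1250 ppm and 0.995, 0.53 and 0.86 at places 5, 6 and 8. In the same libraries Cyp2b10 was 29.7, 45.03 and 18.1 CPM and then 9.38, 9.28 and 14.98, and Cyp2c55 was 47.3, 36.6 and 30.5 CPM and then 19.5, 17.1 and 17.1. For both P450s the order was less clear in the other groups. In vehicle males, by rising place, Cyp2b10 was 4.47, 10.7, 3.55, 3.58, 3.28 and 7.83 CPM and Cyp2c55 15.5, 19.5, 10.6, 17.3, 19.5 and 9.70. In vehicle females Cyp2b10 was 42.7, 16.7, 50.0, 19.9, 42.6 and 22.1 CPM and Cyp2c55 7.47, 4.85, 7.88, 6.28, 3.66 and 3.53. In treated females Cyp2b10 was 76.3, 70.8, 119.2, 66.7, 60.3 and 57.7 CPM and Cyp2c55 18.4, 10.004, 34.04, 20.7, 18.3 and 15.3. The mean place was 4.67 in vehicle males, 4.17 in treated males, 5.33 in vehicle females and 3.83 in treated females. With place as a term in the fit Cyp2b10 rose by 1.38 (adjusted p = 0.00785), Cyp2c55 by 1.22 (adjusted p = 0.00536) and Cyp3a11 by 0.40 (adjusted p = 0.0106), while Saa1 was -1.27 and not past the threshold (adjusted p = 0.056). The labels do not say what the place stands for.

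**Figure D5:**
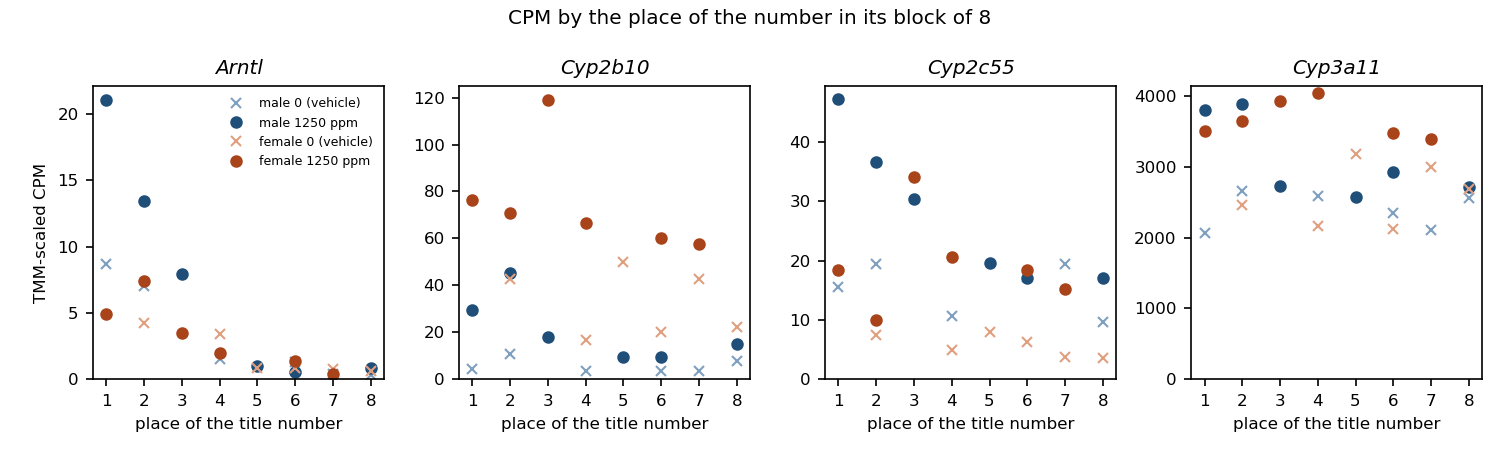
TMM-scaled CPM of Arntl, Cyp2b10, Cyp2c55 and Cyp3a11 by the place of the title number in its block of 8, for vehicle and 1250 ppm livers of both sexes at day 28; each point is 1 library. In the males of 1250 ppm Arntl is at 21.1 CPM at place 1 and at most 0.995 CPM at places 5, 6 and 8, and Cyp2b10 is 18.1 CPM or more at places 1, 2 and 3 and at most 14.98 CPM at places 5, 6 and 8.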

How the data were processed

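The authors deposited unnormalized read counts as whole numbers, in 1 table for liver at each day with a column for every library. Per the submitters' processing notes Trimmomatic, Bowtie2, SAMtools and HTSeq were used with build mm10 (GRCm38), and per the labels' protocols libraries came from a TruSeq Stranded mRNA kit. Tool versions, the gene annotation and the strand setting were not stated there, so overlapping and antisense genes cannot be told apart.

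Groups came from titles. Genes were filtered by edgeR's filterByExpr (12904 of 24421 kept), scaled by TMM and tested with edgeR 4.0.16 (R 4.3.3, limma 3.58.1; quasi-likelihood, robust), with 10 group means over the 60 day 28 livers and, for day 5, 20 over 120 livers; p-values were Benjamini-Hochberg adjusted over all genes tested, at 0.05. Standard errors are the log2 fold change over the square root of F. The script was tested on simulated data. DESeq2 1.42.0, RLE factors, no filter, fewer libraries, a place term, the non-robust fit and leaving out each library were alternatives. CPM are computed from the counts. Coordinates are from GENCODE M21. Nothing in the labels says that each library is a separate animal, so p-values measure the spread between these samples.

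Named genes are the 15 highest and 15 lowest of the 42, genes passing within a sex, and up to 6 by each difference test. A fixed panel and up to 4 genes per list were also named. Other genes of the 42 were named after their values were seen. Fasn, Tnp2, Ngp and the 5 lower genes of day 5 are named outside this rule. One of the 42 is counted but not reported here. Members and lists were chosen with earlier results of these data known.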

Additional observations from a re-analysis of the deposited data

Results flagged for a closer look

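Among 65 genes and 4 groups of 6, 27 of 260 combinations had 1 library set apart from the rest of its group by Dixon's test, where chance gives about 1 in 20. Vehicle male replicate 167 was high in BC031181 (69.3 CPM), Dhrs7b (25.2), Dus1l (85.99), Gm6787 (77.9), Ndufaf3 (18.2) and Timm13 (83.3), all lower genes in males or over both sexes. The same library had a short over long transcript index of 0.72 and 14916 genes detected. Male replicate 209 of 1250 ppm was apart in Alad (317 CPM), Cyp3a16 (1.53) and the number of genes detected (16549), and replicate 216 in Bbs7 (5.59 CPM), Heca (47.4) and the transcript index (-0.26).

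Other males of 1250 ppm were apart in Cyp1a2 (replicate 210, 2863 CPM), Aspdh (replicate 211, 81.5), Cyp2c54 (replicate 213, 456) and Nqo1 (replicate 214, 6.76). Vehicle males were apart in Cyp3a41a (replicate 162, 0.0792 CPM) and Txnrd1 (replicate 168, 124.3). Vehicle female replicate 175 was high in Saa1 (66.7 CPM), Saa2 (20.2) and Slco1a4 (231), replicate 172 in Apip (16.7) and Malat1 (1224), and replicate 173 in Gstm1 (709). Females of 1250 ppm were apart in Cyp1a2 (replicate 218, 1040.0 CPM), Cyp2b10 (replicate 219, 119.2), Scamp4 (replicate 219, 24.9), Apip (replicate 220, 15.5) and Ndufaf3 (replicate 222, 12.6), and replicate 220 had a total of 18084863 counts.

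Rpph1 was the one gene whose effect differed between the days by the test of the difference, 1.47 on the log2 scale, from -0.81 at day 5 (adjusted p = 0.0961) to 0.66 at day 28 (adjusted p = 0.106).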

How the results depend on the processing

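Over both sexes the 42 calls became 36 with RLE factors, 28 without the low-count filter, 44 without the robust option, 55 with the place term, 86 with DESeq2 (which held 42 of the 42), 21 with the 24 libraries alone (16 of the 42) and 21 with those and an additive sex term. In males the 21 calls became 8 without the filter, 214 with DESeq2, 1 with the 24 libraries alone (Ugt2b35) and about 1.0e+02 with the place term (52 higher and 52 lower). In females the 5 became 10 with DESeq2. Between 2500 and 1250 ppm 1 gene was left (Cyp3a11) without the filter, with the 24 libraries of these 2 feed levels alone, or without replicates 167 and 209, and with only the 48 libraries of vehicle and 1250 ppm the day difference had 0 genes by edgeR (589 at an unadjusted p under 0.05).

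Leaving out 1 library gave 25 to 65 calls over both sexes (25 without vehicle male replicate 164 or female replicate 218 of 1250 ppm, 65 without vehicle male replicate 161). It gave 3 to 308 in males (3 without replicate 216 of 1250 ppm, 308 without vehicle replicate 161), 1 to 5 in females (1 without vehicle replicate 176) and 0 for the sex difference. The causes were not tested. After the data were seen, leaving out replicates 167 and 209 together was added and gave 38 calls over both sexes and 3 in males, as was the mean of 150 and 300 ppm in place of vehicle, with 5.

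Signs turned, with no turned value past the threshold, for Alas1 (0.076 with place, 0.00013 without replicates 167 and 209, and -0.32 to 0.18 with 1 library left out, above 0 at 0.18 without vehicle male 164, 0.16 without vehicle female 176, 0.05 without male 209, 0.05 without male 210, 0.0067 without male 211 and 0.01 without female 218 of 1250 ppm). Por was 0.16 with place. Against 150 and 300 ppm Saa1 was 0.076, Nqo1 -0.12, Nr1i3 -0.091, Fabp2 0.027 and Gpr108 0.0063. With 1 library left out Cyp3a41a ran from -0.35 to 0.56 (without vehicle male 162) and Nr1i3 from -0.0027 (without female 220 of 1250 ppm) to 0.15.

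No paired analysis was possible because the libraries of the groups compared carry different numbers in the titles. Low counts limit genes under about 1 CPM, and the depth of a library does not cover differences between animals.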
